A study of Mus musculus with 40 samples.

Results

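Expression of 9 genes of the TGF-beta and fibrosis response was followed in mice with (WT) and without (EC-EGFR-KO) endothelial EGFR, separately for aorta and for kidney. The genes were Tgfb1, Tgfb2, Tgfb3, Ltbp1, Thbs1, Tgfbr1, Smad7, Fn1 and Postn, taken by name from the gene column of the count tables. They are 9 of the 55335 genes listed for aorta and of the 55382 listed for kidney, and the 9 passed the filter on low counts in both tissues. RNA came from 40 libraries, 5 for each combination of tissue, genotype and diet. The KO mice carried floxed Egfr alleles and the Tek-cre transgene, whose Tie2 promoter is active in endothelium and also in haematopoietic cells. The recombinase was not inducible, and it excised a stretch comprising exon 1 of Egfr. The WT controls carried the same transgene without loxP sites. Both genotypes received a high fat diet (HFD, 60% of energy from fat) or a standard fat diet (SFD, 10%) for 18 weeks, starting at 6 weeks of age. The RNA came from aortic and kidney tissue and not from isolated cells, so endothelial cells supplied only a share of it. Which part of each organ was used is not named in the sources used here. The questions were whether HFD or the loss of endothelial EGFR changed these genes.

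TGF-beta is made as a latent complex, in which the ligand stays bound to its propeptide and, through a latent TGF-beta binding protein such as the product of Ltbp1, is tethered to the extracellular matrix. Integrins, proteases and thrombospondin-1, encoded by Thbs1, can release the active ligand. The ligand then signals through a type II and a type I receptor, the latter encoded by Tgfbr1, to SMAD transcription factors. Smad7 encodes an inhibitory SMAD that is itself induced by the pathway. Fn1 encodes fibronectin and Postn encodes periostin, matrix proteins that are deposited in fibrosis and are also part of the normal arterial wall.

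Total counts ranged from 17520161 to 36452741 per aortic library (median 19683938) and from 19643033 to 48833447 per kidney library (median 24182781). Levels are given as FPM, counts scaled to a normalized library size of 1e+06. The aortic libraries R-1 (WT SFD) and R-12 (KO SFD) differed by less than sampling noise (median chi-square over genes 0.0258, against 1.752 for the next most alike pair). The same held for the kidney libraries a1 (KO HFD) and a12 (WT HFD), with 0.0246 against 1.76 for the next pair. Each pair joins libraries labelled as different genotypes, and within 1 diet, so the genotype comparisons, the averaged diet comparisons and the summaries over 10 or 20 libraries rest on fewer separate libraries than the labels give. Which genotype each pair belongs to cannot be told, so a diet comparison within a genotype may also hold a library of the other. Other libraries stood apart in cell type or stress genes. Lymphoid markers summed to 61.3 FPM in the KO SFD aorta R-11 and 103 FPM in the KO HFD aorta R-16, against a median of 3.62 FPM over aortas. Immediate-early genes summed to between 1919 and 2147 FPM in the SFD kidneys a8, a9 (KO) and a17 (WT), against a median of 140 FPM over kidneys. The WT SFD kidney a18 was low in podocyte markers (88.5 FPM, median 244 FPM) and endothelial markers (129 FPM, median 283 FPM). Results are therefore also given without these libraries. Egfr itself had 39.6 ± 8.93 FPM (SD, n = 5) in WT SFD and 44.0 ± 5.70 FPM (SD, n = 5) in KO SFD aortas, and 56.3 ± 5.81 and 53.1 ± 4.33 FPM in the matching kidneys. Gene counts include exons outside the deleted stretch and other Egfr-expressing cells, so they do not check the deletion. The type II receptor gene Tgfbr2 and the SMAD genes Smad3 and Smad6 were listed at 0 in every library and were not tested, as was the matrix protease inhibitor gene Timp1. The same held for each gene listed on chromosomes 9, X, Y and MT, so library totals hold no counts from these chromosomes. Smooth muscle markers were abundant in aortas, with 24900 FPM or more for Myh11, Acta2 and Smtn together, and proximal tubule markers in kidneys, with 7501 FPM or more. The smooth muscle markers Tagln and Cnn1 were listed at 0.

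Aorta and kidney held these genes at very different levels. Scaled to exon length, Postn was the most abundant member in aortas, and in kidneys it lay at the low end with Tgfb2 and Tgfb3. In aortas Postn had 286 ± 37.1 FPM per kb (SD, n = 20), which placed it at rank 182 of 15122 genes tested, followed by Fn1 (184 ± 74.3) and Ltbp1 (88.9 ± 10.7). Tgfb3 had 52.0 ± 6.74, Tgfbr1 27.3 ± 7.57, Smad7 14.3 ± 5.54, Thbs1 12.2 ± 6.46, Tgfb2 12.2 ± 2.67 and Tgfb1 7.01 ± 1.196 FPM per kb. Among neighbours in this order, Ltbp1 and Tgfb3 did not overlap over the 20 libraries, and the other neighbours did. In kidneys Smad7 (8.07 ± 1.76 FPM per kb), Tgfbr1 (7.90 ± 1.11) and Thbs1 (7.18 ± 3.77) led and overlapped each other. They were followed by Tgfb1 at 2.92 ± 0.537, apart from its neighbours on both sides. Fn1 (1.36 ± 0.376) and Ltbp1 (1.32 ± 0.315) came next and overlapped. Tgfb3 (0.441 ± 0.192), Tgfb2 (0.340 ± 0.0751) and Postn (0.305 ± 0.169) had the lowest levels and overlapped, in an order that pools both diets. Postn was at rank 14210 of 15943 genes tested there.

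**Figure D1:**
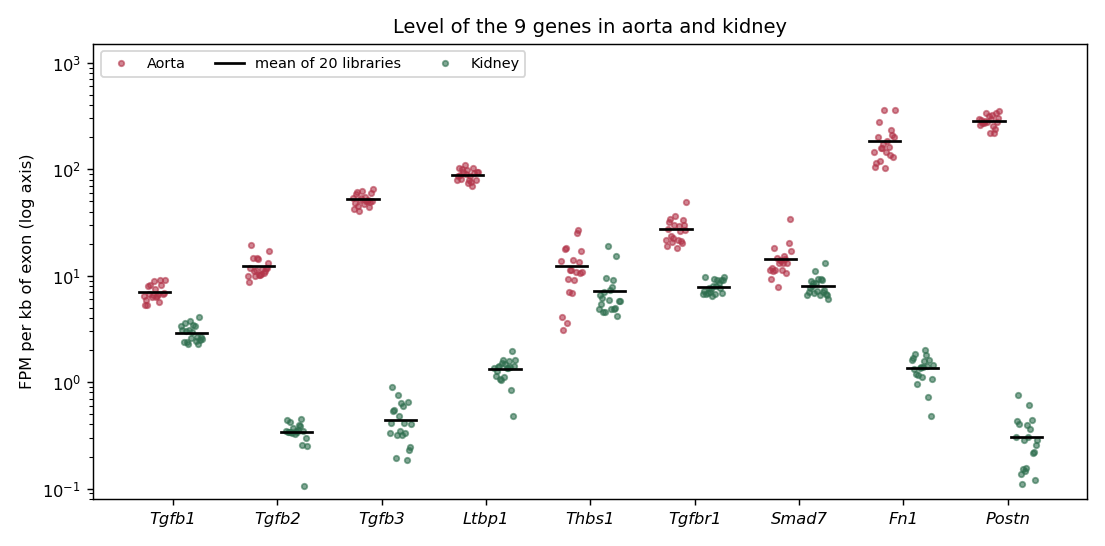
Level of each gene in the 20 aortic and the 20 kidney libraries, as FPM per kb of exon on a log axis, with a black bar at the mean. Postn, Fn1, Ltbp1 and Tgfb3 lie far apart between the tissues, whereas Smad7 and Thbs1 lie close together.

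The tissues were normalized separately, so their levels are set side by side without a test. The mean of Postn per kb was 936 times as high in aorta as in kidney, that of Fn1 135 times, of Tgfb3 118 times, of Ltbp1 67.3 times and of Tgfb2 35.9 times. For Tgfbr1 the ratio was 3.45, for Tgfb1 2.40, for Smad7 1.77 and for Thbs1 1.70. The ligand genes also differed in their proportions. In aortas Tgfb3 made up 73.0% ± 2.41 (SD, n = 20) of the summed ligand level per kb, Tgfb2 17.04% ± 2.11 and Tgfb1 9.95% ± 1.81. In kidneys Tgfb1 made up 79.0% ± 4.78, Tgfb3 11.7% ± 4.31 and Tgfb2 9.29% ± 2.14. The share of Tgfb3 was 68.8% or more in every aorta, and that of Tgfb1 65.8% or more in every kidney.

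In kidneys HFD was accompanied by higher expression of the matrix genes Postn and Fn1. Postn (chromosome 3, 54361109 to 54391037, plus strand, GRCm38/mm10) rose by 1.098 on the log2 scale when both genotypes were averaged (SE 0.24, adjusted p = 0.00337, edgeR quasi-likelihood test). Fn1 (chromosome 1, 71585520 to 71653200, minus strand) rose by 0.49 (SE 0.16, adjusted p = 0.0450). The other 7 members did not pass the test in this comparison. Of all genes tested, 16.4% passed in either direction, and 7.7% of all genes tested passed as higher under HFD, beside 2 of 9 members. The median log2 fold change of the 9 members was 0.11, that of all genes 0.00. In bulk tissue, a larger number of cells of a type and more RNA per cell cannot be told apart.

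Postn, which encodes a matricellular protein secreted by activated fibroblasts, is a low gene in kidney, with 19 to 150 counts per library. In WT SFD kidneys it had 1.90, 1.93, 1.05, 2.24 and 2.48 FPM (replicates a16 to a20). In WT HFD kidneys it had 3.45, 2.68, 5.35, 3.18 and 3.88 FPM (a11 to a15). Each WT HFD kidney was thus above each WT SFD kidney. In KO SFD kidneys Postn had 0.963, 1.32, 2.47, 1.26 and 1.35 FPM (a6 to a10). In KO HFD kidneys it had 2.65, 3.72, 6.57, 3.50 and 1.19 FPM (a1 to a5). The KO groups overlapped through a5 alone, and 9 of 10 HFD kidneys exceeded every SFD kidney of either genotype. The log2 fold change was 1.26 in KO (SE 0.35, adjusted p = 0.0340) and 0.94 in WT (SE 0.34, adjusted p = 0.113), and 6.34% and 6.71% of all genes passed in these comparisons. The difference between the genotypes was itself tested as an interaction and was not significant (0.31, SE 0.48, unadjusted p = 0.522). The averaged increase passed without any single library (adjusted p from 0.000434 to 0.00775), without a1 and a12 (adjusted p = 0.00285) and without a8, a9 and a17 (adjusted p = 0.00594). The increase in KO did not pass in 7 of 10 fits that left out a library of its own groups (a2, a3, a4, a6, a7, a9 or a10), with adjusted p up to 0.104, nor without a8, a9 and a17 (adjusted p = 0.0517). With the study's additional filters, a fold change over 1.5 and more than 5 FPM in a compared group, 2.92% of genes passed and Postn did not, because its group means were at most 3.71 FPM.

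Fibronectin mRNA was less clear-cut. Fn1 had 8.55, 18.7, 5.64, 12.6 and 17.1 FPM in WT SFD kidneys (a16 to a20). In WT HFD kidneys it had 16.3, 18.6, 23.6, 21.2 and 16.7 FPM (a11 to a15). In KO SFD kidneys it had 11.2, 13.8, 15.8, 16.2 and 13.1 FPM (a6 to a10), and in KO HFD kidneys 18.8, 19.7, 15.7, 21.3 and 14 FPM (a1 to a5). The groups overlapped within each genotype, and 5 of 10 HFD kidneys were above every SFD kidney. Within a genotype the test was not passed (WT 0.62, SE 0.23, adjusted p = 0.125; KO 0.36, SE 0.23, adjusted p = 0.426). The averaged increase kept its size in the 20 fits that left out 1 library, between 0.41 and 0.59, but lay near the threshold. It did not pass in 12 of these fits, with adjusted p from 0.0124 to 0.0804, nor without a1 and a12 (0.49, adjusted p = 0.0781). Without the SFD kidney a18, which had the lowest Fn1 level and few endothelial and podocyte transcripts, it was 0.41 and passed. Without a8, a9 and a17 it was 0.66 (adjusted p = 0.0160), and then Fn1 also passed in WT (0.82, adjusted p = 0.0420). With the study's filters the averaged increase over all libraries did not pass, since its fold change was under 1.5.

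**Figure D2:**
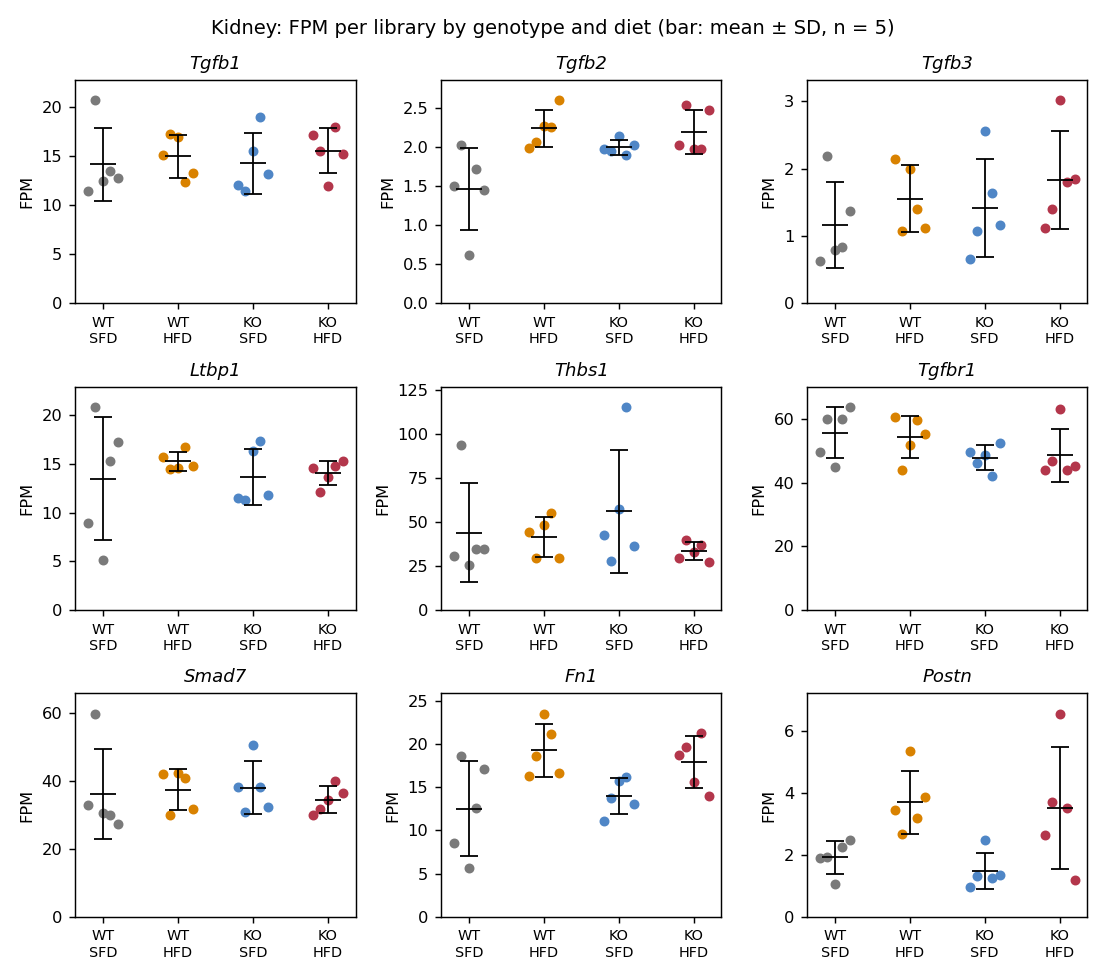
FPM of the 9 genes in kidney by genotype and diet, 1 point per library, with mean ± SD of 5 libraries as black bars. Postn is higher in the HFD than in the SFD groups apart from 1 KO HFD kidney at 1.19 FPM, and Thbs1 shows SFD libraries at 93.5 and 115 FPM.

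Among the ligand genes in kidney, Tgfb2 (chromosome 1, 186622792 to 186705989, minus strand) came nearest to the threshold. It had 1.498, 2.02, 0.612, 1.71 and 1.45 FPM in WT SFD kidneys (a16 to a20). In WT HFD kidneys it had 1.98, 2.06, 2.27, 2.26 and 2.60 FPM (a11 to a15). Only the SFD kidney a17 reached into the range of the WT HFD group. The KO groups were close together, with 1.89 to 2.14 FPM under SFD and 1.97 to 2.53 FPM under HFD. The log2 difference in WT was 0.61 (SE 0.21, adjusted p = 0.0903) and the average of both genotypes 0.37 (SE 0.15, adjusted p = 0.0890), neither of which passed with edgeR. The average passed with the DESeq2 Wald test (0.37, adjusted p = 0.0439) and without a17 (0.45, adjusted p = 0.0384). The difference in WT passed without a8, a9 and a17 (0.76, adjusted p = 0.0475) and with the DESeq2 Wald test (0.60, adjusted p = 0.0296). Without a18, the lowest library, the difference in WT was 0.43. Tgfb1 (chromosome 7, 25687002 to 25705077), the main ligand of this tissue, had 14.2 ± 3.72 FPM in WT and 14.2 ± 3.07 FPM in KO kidneys under SFD, and 14.96 ± 2.17 FPM in WT and 15.5 ± 2.31 FPM in KO kidneys under HFD (SD, n = 5). Its highest values lay in the SFD kidneys a17 (20.7 FPM) and a9 (18.95 FPM). Tgfb3 (chromosome 12, 86056745 to 86079041) ranged from 0.632 to 2.56 FPM under SFD and from 1.07 to 3.02 FPM under HFD. Neither passed the test over all libraries. Without a8, a9 and a17 both were higher under HFD on average, Tgfb1 by 0.31 (adjusted p = 0.0368) and Tgfb3 by 0.84 (adjusted p = 0.0273) on the log2 scale.

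Thbs1 (chromosome 2, 118111876 to 118127133), whose product can activate latent TGF-beta and which is known as a rapidly induced gene, had its highest kidney levels in 3 SFD libraries. In KO SFD kidneys it had 42.8, 27.9, 57.5, 115 and 36.2 FPM (a6 to a10). In WT SFD kidneys it had 30.5, 93.5, 25.6, 34.8 and 34.8 FPM (a16 to a20). Immediate-early genes were high in a8, a9 and a17, and their part in the Thbs1 level was not tested. WT HFD kidneys had 44.4, 29.6, 48.0, 55.0 and 29.6 FPM (a11 to a15), and KO HFD kidneys 33.3 ± 5.09 FPM (SD, n = 5). Thus a9 and a17 stood far above the rest, while a8 was close to the WT HFD kidney a14, whose immediate-early genes summed to 212 FPM. The diet difference in KO was -0.75 (SE 0.37, adjusted p = 0.282) and -0.30 without a9. Smad7 was likewise highest in a17 (59.7 FPM) and a8 (50.4 FPM), and ranged from 27.4 to 42.3 FPM in the other kidneys. Ltbp1 (chromosome 17, 75005568 to 75392512) was lowest in a18 (5.16 FPM) and highest in a17 (20.9 FPM). Tgfbr1 (chromosome 4, 47353222 to 47414931) varied least, between 42.3 and 63.9 FPM. Thbs1, Smad7, Ltbp1 and Tgfbr1 did not pass the test for diet in either genotype or on average.

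Other genes of the pathway gave context to these results. Of 44 further genes in 4 lists, 40 could be tested in kidney, and 5 were higher and 3 lower under HFD on average, a share close to the 16.4% of all genes. Among the matrix and target genes, 4 of 16 tested rose and 1 fell. Col3a1, encoding the fibrillar collagen type III, rose by 0.71 (SE 0.23, adjusted p = 0.0394), from a median of 23.4 to 32.7 FPM (n = 10 each). The gelatinase gene Mmp2 rose by 0.67 (adjusted p = 0.0155), the lysyl oxidase-like gene Loxl2 by 0.65 (adjusted p = 0.0486) and the intermediate filament gene Vim by 0.37 (adjusted p = 0.0159). Cyr61, a matricellular immediate-early gene, fell by 2.51 (SE 0.73, adjusted p = 0.0242), with 364 to 578 FPM in its highest SFD libraries of each genotype and at most 47.4 FPM under HFD. Without a8, a9 and a17 its difference was -0.09 (adjusted p = 0.886). Among 12 latency and activation genes, Thbs2 rose by 0.54 (adjusted p = 0.0438). The integrin subunit gene Itgb6, whose epithelial integrin activates latent TGF-beta, fell by 0.68 (SE 0.16, adjusted p = 0.00480), from a median of 88.4 to 53.5 FPM. The proprotein convertase gene Furin, which cleaves the TGF-beta precursor, fell by 0.13 (adjusted p = 0.0377). Of 4 receptor genes and 8 SMAD pathway genes tested, 0 passed the edgeR test, and 1 of each list had an unadjusted p under 0.05. Of all 15943 genes tested, 4770 had an unadjusted p under 0.05 for diet on average. Within KO, Itgb6 fell by 0.74 (adjusted p = 0.0497), a call that was lost in 9 of 10 fits without a library of these groups (adjusted p up to 0.139). Within WT 0 genes of the 4 lists passed, but 7 did without a17 and 1 without a16. Itgb6, Mmp2 and Vim passed in each of 20 fits that left out 1 library, whereas Loxl2 did not pass in 15 of them, Furin in 14, Thbs2 in 10, Col3a1 in 9 and Cyr61 in 2. The number of pathway genes called ran from 4 to 12 in these fits, with 12 without a17. For fits that left out 1 library, on average or within a genotype, the number of all genes passing is not given here. These counts therefore do not set the pathway genes apart from other genes. Without the filter on low counts 4 were called, and Loxl2, Col3a1, Furin and Cyr61 were not. Without a1 and a12, Furin (adjusted p = 0.0776) and Cyr61 (adjusted p = 0.0784) did not pass. Without a8, a9 and a17, Col3a1 (0.77, adjusted p = 0.0506) and Furin (-0.13, adjusted p = 0.107) kept their size but did not pass.

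Some markers of other cell types also differed by diet in kidney, where 16.4% of all genes passed on average. Of 5 fibroblast markers, Lum (1.36, SE 0.23, adjusted p = 0.000254) and Dpt (0.87, SE 0.23, adjusted p = 0.0137) rose under HFD on average, and Dcn, Col6a3 and Pdgfra did not pass. Their summed level ranged from 23.7 to 80.2 FPM in WT SFD and from 60.4 to 95.7 FPM in WT HFD, and from 51.6 to 70.1 FPM in KO SFD and from 51.6 to 89.3 FPM in KO HFD, with no marker at 0. Of 4 macrophage markers, Cd68 rose by 0.68 (adjusted p = 0.00171), Lyz2 by 0.67 (adjusted p = 0.00351) and Adgre1 by 0.67 (adjusted p = 0.0312), and Csf1r fell by 0.26 (adjusted p = 0.0168). Adgre1 did not pass in 5 of 20 fits that left out 1 library (adjusted p up to 0.0580), whereas Cd68 and Lyz2 passed in each. Adipocyte markers summed to between 34.1 and 91.5 FPM in KO SFD and between 50.5 and 211 FPM in KO HFD kidneys, and in WT kidneys to between 36.6 and 207 FPM under SFD and between 59.4 and 138 FPM under HFD, with none at 0. The KO HFD kidney a3 had the highest Postn level and the highest adipocyte sum (211 FPM), and a5 had the lowest values of its group in both (1.19 and 50.5 FPM). In WT SFD kidneys, however, the adipocyte sum reached 207 FPM while Postn was at most 2.48 FPM. The 3 smooth muscle markers detected did not pass the test. The part of fibroblasts, macrophages or attached fat tissue in the Postn and Fn1 levels was not tested.

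For genotype, the edgeR comparisons in kidney called no member and no other gene. With edgeR, 0 of 9 members passed for KO against WT under SFD, under HFD or on average, and 0 of 9 in the interaction of diet and genotype. The share of all genes that passed was 0% in each of these 4 comparisons, although 426, 546, 768 and 285 genes had an unadjusted p under 0.05. The DESeq2 Wald test also called 0 members, and 1 gene of 15943 for KO against WT on average. A count of 0 is thus that of all genes in edgeR and does not show that the members were alike in both genotypes. Among the members the unadjusted p was under 0.05 for Tgfb2 under SFD (0.45, SE 0.21, adjusted p over 0.99) and for Tgfbr1 on average (-0.19, SE 0.08, adjusted p = 0.802). Tgfb2 had 1.99 ± 0.0954 FPM in KO SFD and 1.46 ± 0.523 FPM in WT SFD kidneys (SD, n = 5), and the groups overlapped. Without a18 the Tgfb2 difference under SFD was 0.27. Tgfbr1 had 47.9 ± 3.88 FPM in KO SFD and 55.7 ± 7.98 FPM in WT SFD kidneys. Without a1 and a12 the Tgfbr1 difference was -0.20 (adjusted p = 0.558).

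**Figure D3:**
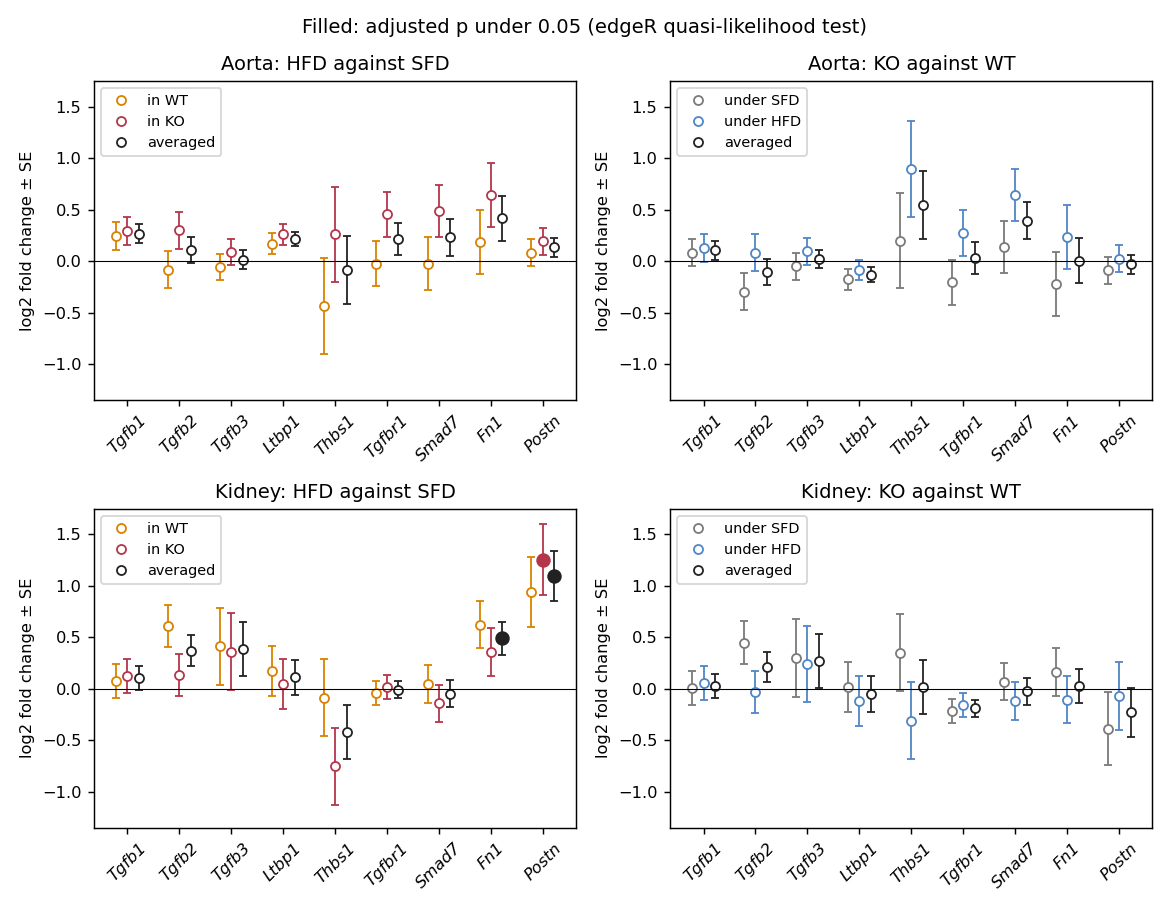
Log2 fold change ± SE of the 9 genes for diet (left) and genotype (right) in aorta (top) and kidney (bottom), with filled points for an adjusted p under 0.05. Filled points occur for kidney Postn in KO and on average and for kidney Fn1 on average, and aorta holds none.

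In aortas HFD changed no member beyond the threshold. Of 15122 genes tested, 0.0132% passed in WT, 0% in KO and 0.0529% on average, so the members' count of 0 is near that of all genes. The DESeq2 Wald test and the edgeR exact test called 0 members as well. Of all 15122 genes, the DESeq2 Wald test called 9 in WT, 4 in KO and 51 on average. The exact test called 6 in WT and 1 in KO. At an unadjusted p under 0.05 stood 0 members in WT and 2 in KO, Tgfb1 and Ltbp1, and the same members on average. Of all 15122 genes, 394 stood there in WT, 690 in KO and 1013 on average. In KO the log2 differences of the 9 members lay above 0, with a median of 0.29 beside -0.01 for all genes, and in WT 4 of 9 did, with a median of -0.02. The Thbs1 difference in KO ran from -0.02 to 0.63 when single libraries were left out, so its direction was not fixed. None of the 9 interactions had an unadjusted p under 0.05.

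Tgfb1 had 32.2, 26.8, 29.6, 26.8 and 40.3 FPM in WT SFD aortas (R-1 to R-5). In WT HFD aortas it had 34.2, 41.3, 31.6, 33.0 and 44.5 FPM (R-6 to R-10). In KO SFD aortas it had 37.7, 32.1, 32.4, 34.2 and 28.4 FPM (R-11 to R-15), and in KO HFD aortas 46.0, 41.5, 33.7, 35.0 and 45.8 FPM (R-16 to R-20). Most values were higher under HFD, but the groups overlapped within each genotype, and 5 of 10 HFD aortas were above every SFD aorta. The average log2 difference was 0.27 (SE 0.09, adjusted p = 0.523). Ltbp1, which encodes the protein that anchors the latent complex in the vessel wall, had a median of 853 FPM (742 to 1090) under SFD and 1006 FPM (850 to 1161) under HFD, n = 10 each. Its average difference was 0.21 (SE 0.07, adjusted p = 0.487). Fn1 was spread widely within groups, from 1187 to 3273 FPM under SFD and from 1402 to 4194 FPM under HFD (0.42, SE 0.22, adjusted p = 0.815). The highest Fn1 libraries were R-20 (KO HFD), R-10 (WT HFD) and R-5 (WT SFD), so each of 3 groups held a high library. Without R-10 the average Fn1 difference was 0.245. Postn was steadier, with group means between 2296 and 2625 FPM. Tgfb3, the main ligand gene of this tissue, had 178 ± 26.2 FPM in WT and 172 ± 8.45 FPM in KO aortas under SFD, and 171 ± 28.1 FPM in WT and 183 ± 28.4 FPM in KO aortas under HFD (SD, n = 5). Adipocyte markers differed between the aortic groups, with a median sum of 442 FPM (174 to 607) in WT SFD and 238 FPM (83.5 to 395) in WT HFD. In KO aortas the median sum was 210 FPM (109 to 320) under SFD and 154 FPM (101 to 216) under HFD. Of these 6 markers, 1 passed for diet on average, as lower under HFD, and their part in the levels of Tgfb1, Ltbp1 and Fn1 was not tested.

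**Figure D4:**
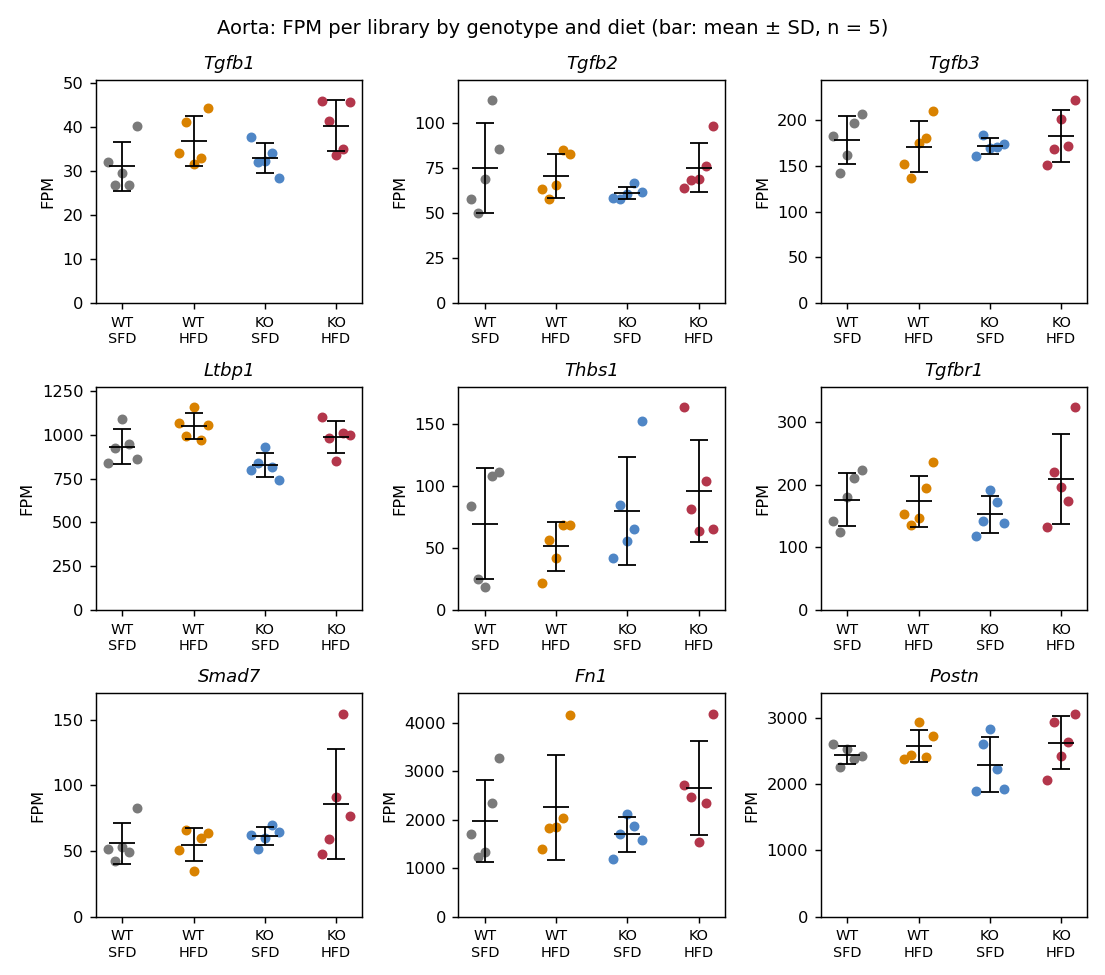
FPM of the 9 genes in aorta by genotype and diet, 1 point per library, with mean ± SD of 5 libraries as black bars. The groups overlap for each gene, and the Smad7 panel shows 1 KO HFD library at 155 FPM.

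In aortas no member passed for genotype, and almost no other gene did. In edgeR, 0 of 9 passed for KO against WT under SFD, under HFD and on average, where 0%, 0% and 0.0198% of all genes passed, and 0 of 9 in the interaction, where 0% passed. The DESeq2 Wald test called 0 members, and of all 15122 genes 0 under SFD, 25 under HFD and 45 on average. An unadjusted p under 0.05 was reached by Smad7 under HFD (0.65, SE 0.25, adjusted p = 0.702) and on average (0.39, SE 0.18, adjusted p = 0.553). Of all 15122 genes, 884 reached it under HFD and 1328 on average. Smad7 had 50.8, 65.7, 35.2, 59.7 and 63.5 FPM in WT HFD aortas (R-6 to R-10). In KO HFD aortas it had 47.9, 59.5, 91.3, 155 and 76.6 FPM (R-16 to R-20). Replicate R-19 stood far above the others, and without it the difference under HFD was 0.34. Immediate-early genes summed to 15860 FPM in R-19, the highest of the aortas, and their part in its Smad7 level was not tested. Thbs1 was widely spread, with 18.9 to 112 FPM in WT and 41.7 to 153 FPM in KO aortas under SFD. Under HFD it had 22.0 to 68.6 FPM in WT and 64.1 to 164 FPM in KO aortas. Its difference under HFD was 0.89 (SE 0.47, adjusted p = 0.869), and 0.61 without R-16, the aorta with the highest Thbs1 level. The 4 macrophage markers summed to 2045 FPM in R-16, to between 274 and 389 FPM in the other KO HFD aortas and to between 182 and 263 FPM in WT HFD aortas. Of these markers 0 passed the edgeR test for genotype, and their part in the Thbs1 level was not tested. Without R-1 and R-12, which are near-identical but labelled WT and KO, 131 genes passed for genotype on average, and 0 of them were members.

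Of the 44 further pathway genes, 39 could be tested in aorta, and 0 passed in any comparison of edgeR. Those with the smallest p were Spp1, Cyr61 and Nrros. Spp1, encoding osteopontin, had 3.07 ± 2.05 FPM in KO HFD and 1.13 ± 0.451 FPM in KO SFD (SD, n = 5), a log2 difference of 1.44 (SE 0.43, adjusted p = 0.987). Cyr61 had 790 ± 266 FPM in KO SFD and 420 ± 228 FPM in WT SFD (average genotype difference 1.09, SE 0.34, adjusted p = 0.419). Immediate-early genes had a median sum of 1541 FPM in WT and 2648 FPM in KO aortas under SFD, and of 1688 and 4103 FPM under HFD, and their part in the Cyr61 level was not tested. Nrros, whose product binds latent TGF-beta on macrophages and microglia, had 8.55 ± 3.49 FPM in KO HFD and 5.28 ± 1.55 FPM in WT HFD (0.69, SE 0.26, adjusted p = 0.671), and the difference was 0.44 without R-16. The part of the macrophage markers, high in R-16, in the Spp1 and Nrros levels was not tested.

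**Figure D5:**
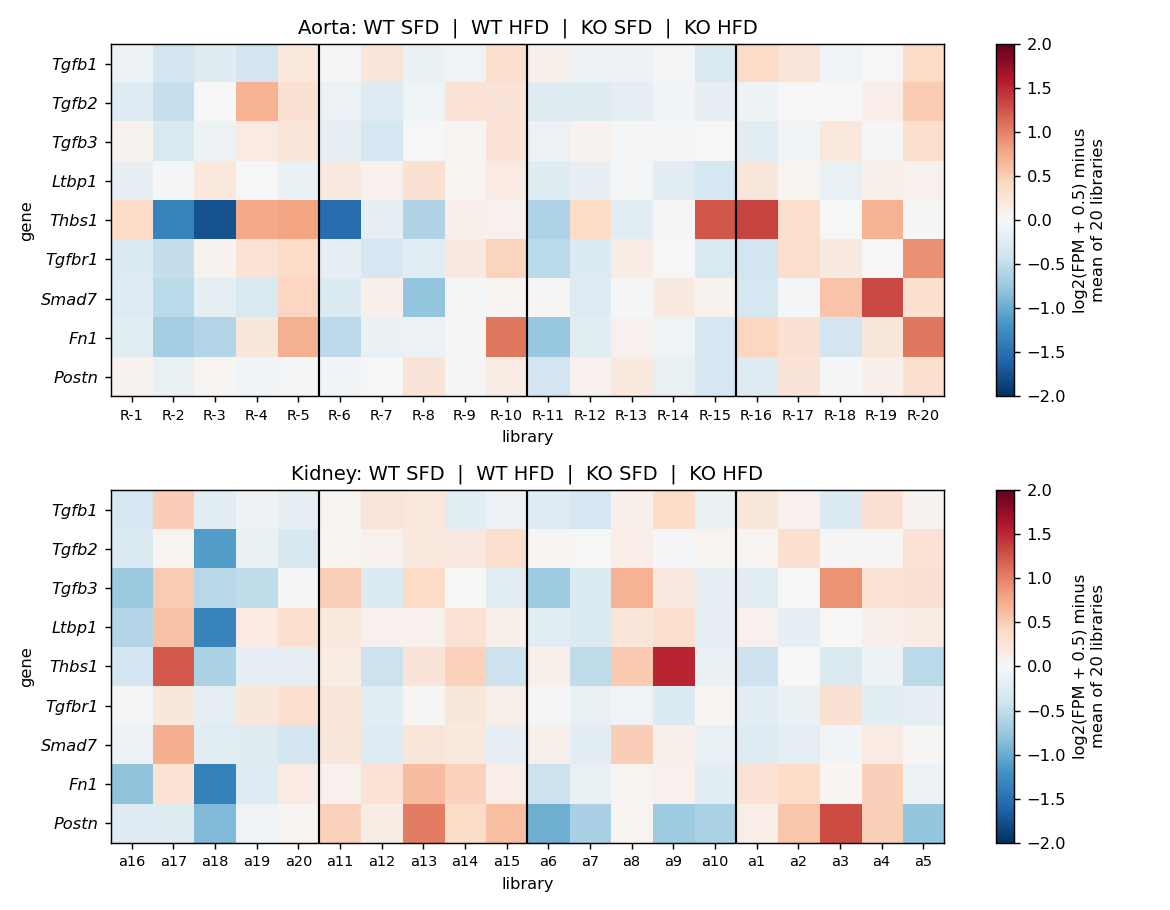
Deviation of each gene from its mean over the 20 libraries of a tissue, on the log2(FPM + 0.5) scale, by library and group (black lines part the groups). In kidney a17 is raised in Thbs1 and Smad7, a18 is lowered in Tgfb2, Ltbp1 and Fn1, and a3 is raised in Postn; in aorta R-20 is raised in Fn1 and Tgfbr1.

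Within groups some members varied together. Over 19 libraries per tissue, with each near-identical pair counted once, deviations of log2(FPM + 0.5) from the group mean were correlated for the 36 pairs of members, with Benjamini-Hochberg adjustment over 36. In aortas 32 of 36 pairs had a positive r, and 4 pairs passed an adjusted p of 0.05, each with a positive r. Tgfb2 and Tgfbr1 had a Pearson r of 0.78 (permutation p = 0.00011, adjusted p = 0.00396; Spearman rho 0.81, p = 0.0003, adjusted p = 0.0108), and r was 0.78 without the 2 libraries farthest from the median of Tgfb2. Tgfb3 and Tgfbr1 had r = 0.79 (permutation p = 0.00038, adjusted p = 0.00684; rho 0.73, p = 0.00226, adjusted p = 0.0342; r without the 2 farthest 0.75). Tgfb2 and Tgfb3 had r = 0.75 (permutation p = 0.00187, adjusted p = 0.0224; rho 0.72, p = 0.00762, adjusted p = 0.0549; r without the 2 farthest 0.75). Tgfbr1 and Fn1 had r = 0.71 (permutation p = 0.00276, adjusted p = 0.0248; rho 0.72, p = 0.00285, adjusted p = 0.0342; r without the 2 farthest 0.78). Tgfb2 and Fn1 (adjusted p = 0.0662) and Tgfb3 and Fn1 (adjusted p = 0.0674) did not pass. Without R-11 and R-16 the 4 pairs also passed by r, and 7 pairs did in all, while 0 passed by rho. In kidneys 0 of 36 pairs passed, although 13 had an unadjusted permutation p under 0.05. The highest kidney r was 0.86, between Ltbp1 and Fn1 (permutation p = 0.00235, adjusted p = 0.0845; rho 0.64, p = 0.0232, adjusted p = 0.105). It was 0.63 without a17 and a18. Cell type markers varied along with these aortic members to different degrees. Over the same 19 aortas, and given as a description, Tgfb3 had an r of -0.73 with red blood cell markers and 0.67 with fibroblast markers. Tgfbr1 had -0.67 and 0.61, Tgfb2 -0.59 and 0.57, and Fn1 -0.23 and 0.60. Other lists reached similar values, so these lists do not stand alone. Tgfb3 had -0.65 with skeletal muscle markers, and Tgfbr1 had -0.61 with lymphoid markers. Fn1 had -0.62 with adipocyte markers and -0.62 with skeletal muscle markers. Endothelial markers were weaker, with 0.24 for Tgfb3 and 0.16 for Fn1. The part of cell makeup in the correlations was not tested.

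The genes whose levels followed each member most closely over the 19 libraries of a tissue, among those with a mean of at least 5 FPM, were named without a test. In kidney, Thbs1 was most like C77080 (Pearson r = 0.94) and Klf6 (0.93), an immediate-early transcription factor gene, and Fn1 was most like the endothelial genes Tie1 (0.94) and Pecam1 (0.93). Postn was most like Dip2b (0.81) and Zfp217 (0.79), and Ltbp1 was most like Rcsd1 (0.96) and C1s1 (0.96). Tgfb2 was most like Tspan15 (0.88) and Podxl (0.85), values that were 0.70 and 0.57 without a18. Podxl is among the podocyte markers used here, which also summed to 344 FPM or more in aortas. For Tgfb1 these genes were Pdlim7 (0.91) and Csrp1 (0.90), for Tgfb3 Mafg (0.86) and Ezr (0.85), for Tgfbr1 Atf2 (0.98) and Kif1b (0.96), and for Smad7 Dll1 (0.86) and Cx3cl1 (0.85). In aorta, Smad7 was most like Midn (0.89) and Rhob (0.89), Fn1 was most like Dync1h1 (0.93) and Exoc4 (0.92), and Tgfb3 was most like Adnp2 (0.97) and Fem1c (0.92). Postn was most like Rad51d (0.88) and Sgcb (0.82), Tgfb1 was most like Fam234a (0.89) and Tbc1d10b (0.88), and Tgfb2 was most like Ell2 (0.92) and Bdnf (0.91). For Ltbp1 the genes were Pcyox1l (0.85) and Copg1 (0.78), for Thbs1 Madd (0.87) and Mpeg1 (0.85), and for Tgfbr1 Kank1 (0.96) and Rc3h1 (0.95). No gene was named for the same member in both tissues.

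Promoter sequence is shown for Postn, the member that passed for diet whichever kidney library was left out, and for Tgfb2, the ligand gene nearest to the threshold. RefSeq promoter sequences (GRCm38.p6) matched 5 of the 9 members. The 250 bases before the start are printed 5′ to 3′ on the gene's strand, with capitals for TATAAA, the core of the TATA box, and for CAGAC, the core of the SMAD binding element, each searched on both strands. Postn is at chr3:54360857-54361106 (plus strand) and Tgfb2 at chr1:186705990-186706239 (minus strand).
Postn: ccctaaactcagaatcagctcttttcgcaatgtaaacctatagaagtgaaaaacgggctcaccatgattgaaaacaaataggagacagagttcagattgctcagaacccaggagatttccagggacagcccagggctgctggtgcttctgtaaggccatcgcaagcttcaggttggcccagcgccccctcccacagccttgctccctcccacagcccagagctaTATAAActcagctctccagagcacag
Tgfb2: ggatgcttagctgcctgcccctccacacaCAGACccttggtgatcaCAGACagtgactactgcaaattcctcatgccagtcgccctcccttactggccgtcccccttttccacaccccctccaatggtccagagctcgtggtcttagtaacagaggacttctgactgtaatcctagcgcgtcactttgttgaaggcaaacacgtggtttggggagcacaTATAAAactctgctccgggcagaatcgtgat
TATAAA began 26 bases before the start of Postn and 31 bases before that of Tgfb2, and 12.4% of 32851 promoters of this length held it. CAGAC occurred in the Tgfb2 promoter at 2 places, 221 and 204 bases before the start, and not in this window of Postn; 42.2% of promoters held it. The promoters of Tgfb1 and Tgfbr1 held neither motif, and that of Ltbp1 held CAGAC on the opposite strand 64 bases before the start. These matches describe the sequence and are not evidence of binding.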

How the data were processed

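Aortic and renal mRNA in 40 libraries (5 libraries per tissue, genotype and diet) was sequenced by the study. The authors deposited raw counts per gene, unnormalized, made with featureCounts on GRCm38/mm10. The submitters' processing notes name HISAT2 2.1.0 for mapping, while the methods name TopHat2. Whether strand was used, and how multi-mapping reads were counted, is not given in the sources used here. Nothing says which libraries share a mouse. Each tissue was fitted as a whole with edgeR 4.0.16 (R 4.3.3): TMM normalization, filterByExpr by group, robust quasi-likelihood test and Benjamini-Hochberg adjustment over all genes tested. A gene was called at an adjusted p under 0.05. The fits gave a biological coefficient of variation of 29.0% (aorta) and 22.3% (kidney). FPM are counts scaled to a TMM-normalized library size of 1e+06; per kb values use the exon length of the GENCODE annotation. Correlations used log2(FPM + 0.5) and 100000 permutations within groups (two-sided; numpy 2.4.6, Python 3.11.15).

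The named pathway genes were those called in a tissue (at most 10 by p) or, where 0 were called, the 3 with the smallest p; likeness named 2 genes per member. The members and lists were chosen with earlier results of these data known. Alternatives were the study's filters, no or another filter, the edgeR exact test, the Wald test of DESeq2 1.42.0, its size factors in edgeR, no robust estimation, the compared groups alone, leaving out each library, and leaving out near-identical or deviating libraries. Sequences came from RefSeq promoters. Members without a promoter entry were Tgfb3, Thbs1, Smad7 and Fn1. The animals' sex is not named. The p-values of the main fits set each difference against the spread between these libraries, and both libraries of each near-identical pair were counted there.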

Additional observations from a re-analysis of the deposited data

Results flagged for a closer look

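In 72 groups (9 genes, 8 groups of 5 libraries), the highest or lowest library was compared with Dixon's critical value of 0.71 for its gap divided by the range. It was exceeded in 7 groups, where chance gives about 3.6. In kidney, the WT SFD replicate a17 was far above its group in Thbs1 (93.5 FPM), Smad7 (59.7 FPM) and Tgfb1 (20.7 FPM), and the KO SFD replicate a8 in Postn (2.47 FPM). Both libraries belong to the 3 kidneys with high immediate-early genes. The KO HFD replicate a3 stood out in Tgfbr1 (63.3 FPM); it also had the highest Postn level. In aorta, the WT SFD replicate R-5 was high in Smad7 (82.7 FPM) and the WT HFD replicate R-10 in Fn1 (4160 FPM).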

How the results depend on the processing

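In aorta, 0 members were called in each of the 7 comparisons under every alternative run. In kidney, 0 were called for genotype and for the interaction under every alternative. For HFD averaged over genotypes, 2 members were called, 0 with the study's filters, 1 without a filter on low counts, 1 without a1 and a12, 4 without a8, a9 and a17 (Tgfb1, Tgfb3, Fn1 and Postn), 3 with the DESeq2 Wald test (Tgfb2, Fn1 and Postn), and 1 to 3 when single libraries were left out. Of all genes, 2615 of 15943 were called on average, 2361 of 16043 without a1 and a12, 2136 of 16299 without a8, a9 and a17, and 3055 of 15943 with the DESeq2 Wald test. For HFD in KO, 1 was called, 0 with the study's filters, without a8, a9 and a17 and with the compared groups alone, and 0 to 1 without single libraries. Of all genes in KO, 1011 of 15943 were called, 344 of 15943 with the study's filters, and 582 of 16299 without a8, a9 and a17. For HFD in WT, 0 were called, 2 without a8, a9 and a17, 1 with the DESeq2 Wald test, and 0 to 2 without single libraries, the 2 without a17. Of all genes in WT, 1075 of 16299 were called without a8, a9 and a17, and 1433 of 15943 with the DESeq2 Wald test. For single libraries left out, the number of all genes called is not given here. The cause of these changes was not tested, except that the filter of 5 FPM is above the group means of Postn. Correlated aortic pairs numbered 4, and 7 without R-11 and R-16. The Postn interaction in kidney changed its sign when single libraries were left out (-0.03 to 0.58); no printed log2 fold change with an unadjusted p under 0.1 did under an alternative. Depth limits Tgfb2, Tgfb3 and Postn most in kidney, with 13 to 150 counts per library. No paired analysis was possible because the groups share no replicate numbers.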
